A study of Mus musculus with 4 samples.

Results

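The small leucine-rich proteoglycans described here are 8 of the 27293 genes counted in E13 mouse telencephalon: Bgn, Dcn, Aspn, Lum, Fmod, Prelp, Omd and Ogn. They were taken by name as the collagen-associated members of 1 gene family. The list was chosen with the comparison of knockout and wild type already known, since Ogn and Fmod were among the genes with the most negative fold changes. The members were thus chosen by measured cKO and WT counts, and their difference between genotypes is given as a description with no test. Bulk RNA-seq was done on 4 libraries of telencephalic tissue from C57BL/6 embryos at embryonic day 13 (E13). The libraries labelled WT were WT 1 and WT 2, and those labelled cKO (STINGcKO) were cKO 1 and cKO 2. In STINGcKO mice a floxed STING gene is cut by Cre recombinase made from the Nestin promoter, which is active in neural progenitors, and in which cells of this tissue the gene was cut was not measured here. The sample title of WT 2 has another form than that of WT 1, with the letters nes, and whether that embryo carried Nestin-Cre or the floxed allele is not given in the sources used here.

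Small leucine-rich proteoglycans are secreted proteins whose curved core of leucine-rich repeats binds collagen fibrils and sets how thick and how evenly spaced they grow. Class I (biglycan, decorin, asporin) mostly carries chondroitin or dermatan sulfate chains, class II (lumican, fibromodulin, Prelp, osteomodulin) keratan sulfate chains or sulfated tyrosines, and class III includes osteoglycin. Several of them also bind TGF-beta family ligands and growth factor receptors. In the developing head they are made mainly by mesenchymal cells such as meningeal fibroblasts and by cells of cartilage and bone, while the neural tissue itself is built around lecticans such as neurocan and brevican.

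Of the 8 genes, 7 sit in 3 tandem clusters of the family, and Bgn lies alone on chromosome X (GRCm38 positions of the deposited table). On chromosome 13 the plus-strand order is Ecm2, Aspn (49544443 to 49567565), Omd (49582462 to 49592822) and Ogn (49608046 to 49624501), with gaps of 11.7, 14.9 and 15.2 kb. That whole row lies inside the minus-strand gene Cenpp, with which Aspn shares 7 exon bases and Omd and Ogn none. On chromosome 1, Prelp (133910304 to 133921414, minus strand) lies 2.30 kb from Optc and 115.8 kb from Fmod (134037254 to 134048277, plus strand). On chromosome 10, Dcn (97479609 to 97518143) is followed after 47.0 kb by Lum (97565128 to 97572703), both on the plus strand. Bgn spans 73483602 to 73495933 on the plus strand of chromosome X. Prelp shares 350 exon bases with the opposite-strand gene Gm15851, and since the strand setting of the counting is not given in the sources used here, reads there could belong to either.

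Promoter sequence was found for 6 of the 8 genes in a RefSeq table (GRCm38.p6). The 250 bases before the start site of Ogn, Fmod, Prelp and Bgn are shown because these genes cover the range of behaviour described further on, from the most to the least uneven between libraries. They are chr13:49607765-49608014 (+), chr1:134037004-134037253 (+), chr1:133921402-133921651 (-) and chrX:73483351-73483600 (+), written 5′ to 3′ on the strand of the gene. Capitals mark matches, on either strand, to the TATA box (letters TATAAA), the E-box (letters CANNTG) or the motif of TEAD factors (letters GGAATG).
Ogn: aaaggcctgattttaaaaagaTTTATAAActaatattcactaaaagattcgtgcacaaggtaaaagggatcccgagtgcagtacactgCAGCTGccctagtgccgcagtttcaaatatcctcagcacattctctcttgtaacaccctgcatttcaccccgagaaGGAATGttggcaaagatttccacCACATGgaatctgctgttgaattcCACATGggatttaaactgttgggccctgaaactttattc
Fmod: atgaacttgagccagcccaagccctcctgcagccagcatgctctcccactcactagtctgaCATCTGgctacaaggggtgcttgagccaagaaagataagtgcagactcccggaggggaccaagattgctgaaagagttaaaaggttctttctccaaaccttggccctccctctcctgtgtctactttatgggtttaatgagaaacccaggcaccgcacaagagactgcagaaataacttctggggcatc
Prelp: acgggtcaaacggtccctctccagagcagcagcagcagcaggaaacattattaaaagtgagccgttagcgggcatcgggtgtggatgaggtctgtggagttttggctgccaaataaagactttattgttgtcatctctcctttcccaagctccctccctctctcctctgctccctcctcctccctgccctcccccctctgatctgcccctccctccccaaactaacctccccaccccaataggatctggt
Bgn: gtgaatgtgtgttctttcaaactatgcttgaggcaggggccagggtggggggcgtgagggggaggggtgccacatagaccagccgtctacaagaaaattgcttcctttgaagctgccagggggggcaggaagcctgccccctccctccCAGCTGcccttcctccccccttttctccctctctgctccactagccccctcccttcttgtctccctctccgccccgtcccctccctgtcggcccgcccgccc

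The stretch of Ogn held 3 E-boxes, 1 GGAATG and a pair of TATAAA matches that overlap on opposite strands, at −229 and −227 from the start site. Fmod held 1 E-box at −189 and Bgn 1 at −102, while Prelp had none of these letters. Over 27025 promoters of the same length, 66% held CANNTG, 13% TATAAA and 12.6% GGAATG, so E-boxes were common everywhere. Neither TAATNNNATTA, the paired site of homeodomain proteins (0.47% of promoters), nor the kappaB site (3.75%) was matched in any of the 6 stretches. GC content ran from 30% in Aspn, 38.4% in Omd and 42% in Ogn to 51.2% in Fmod, 55.6% in Prelp and 64.4% in Bgn, against a median of 52% over all promoters. A match of letters is a description of the sequence and not a site in use.

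The libraries held between 17209654 and 18533391 counts, and a gene without a read could have had up to 3 counts, or at most 0.172 CPM (counts scaled to library size by edgeR's TMM method). Where 4 values follow each other, their order is WT 1, WT 2, cKO 1, cKO 2. The STING gene itself (Tmem173) had 20, 19, 18 and 22 counts, a cKO to WT count ratio of 1.02 with an exact counting interval of 0.637 to 1.62. A lower level in the libraries labelled cKO was therefore not seen, and the target goes against their label. Reads were counted over the whole gene, so those outside the floxed part are included. WT and cKO name the libraries by their labels throughout, and directions between the genotypes rest on these labels. A set of 8 cortex markers (Emx1, Emx2, Pax6, Eomes, Tbr1, Neurod6, Neurod2 and Bcl11b) had at least 1054 counts each in every library, and their sums ran from 2197 to 2701 CPM. WT 1 stood apart. It was the highest library for 16 of 16 meninges and mesenchyme markers and for 8 of 8 choroid plexus markers in the table, against 28.9% of all genes. WT 1 was also the highest library for 7 of 7 blood, 6 of 7 endothelium and 5 of 8 mural cell markers. Among cartilage and bone markers it was the highest for 3 of 8, near the share of all genes. Reads on 4 Y-linked genes numbered from 1848 to 3002 in the other libraries and 0 in WT 2.

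Levels can be compared between genes only per length, here as CPM per kilobase of merged exon. Bgn was the most abundant by this measure, with 4.34 ± 0.967 (SD over the 4 libraries; 9.93 on its longest transcript alone), and came first in each of them. Lum (1.97 ± 2.36), Dcn (1.21 ± 1.34), Prelp (0.852 ± 0.665), Ogn (0.582 ± 0.866) and Fmod (0.492 ± 0.795) followed, and among these 5 genes neighbours in the order differed by less than their SD. Omd (0.0993 ± 0.0375) and Aspn (0.0119 ± 0.0137) came last. Among all genes of the table these mean levels stood at percentile 68.4 for Bgn, 54.0 for Dcn and 5.62 for Aspn, so no gene of the family was among the abundant transcripts of this tissue. The order below Bgn was not fixed. Per kilobase, Lum exceeded Dcn in WT 1 (5.44 against 3.22 CPM), while Dcn exceeded Lum in cKO 2 (0.584 against 0.388).

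Biglycan (Bgn) binds collagen type I and TGF-beta and, once set free from matrix, can signal through Toll-like receptors. It had 610, 415, 414 and 461 counts, or 35.0, 22.5, 22.6 and 25.8 CPM. WT 1 was high and the other 3 libraries were close together, with WT 2 and cKO 1 nearly equal. The log2 fold change (cKO over WT, from edgeR's fit) was −0.25 (standard error 0.24). Without WT 1 it was 0.10 (standard error 0.36). Bgn is X-linked, and the library without Y-linked reads, WT 2, had the lowest CPM of the 4. The part of embryo sex in its level was not tested.

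Decorin (Dcn) is the best known regulator of fibril diameter and a decoy for TGF-beta and several receptor tyrosine kinases. Its reads numbered 327, 43, 70 and 61, or 18.8, 2.33, 3.82 and 3.41 CPM. The WT libraries lay on both sides of the cKO pair, since WT 2 was the lowest of the 4 and WT 1 stood 8.05-fold above it. The log2 fold change was −1.54 (standard error 0.76) with all libraries and 0.63 (standard error 0.54) without WT 1. In counts, the cKO libraries together stood at 1.55 times WT 2, with an exact 95% interval of 1.09 to 2.24 that covers counting error only. Asporin (Aspn), the class I protein with an aspartate repeat and no glycosaminoglycan chain, had 1 count in WT 1, 1 in cKO 1 and none in the others, so no level could be detected at this depth.

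Lumican (Lum), the keratan sulfate proteoglycan of cornea and dermis, had 232, 28, 65 and 17 counts. In CPM these were 13.3, 1.52, 3.55 and 0.950. The groups overlapped, and Lum was the 1 gene of the 8 for which the cKO libraries also stood well apart, 3.73-fold. Its log2 fold change was −1.71 (standard error 0.91) with all libraries, and 0.57 (standard error 0.62) without WT 1.

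Fibromodulin (Fmod), which shares a collagen site with lumican and guides collagen crosslinking, had 97, 5, 6 and 6 counts. These were 5.57, 0.271, 0.327 and 0.335 CPM. A single library carried nearly all reads, and WT 2 was not above either cKO library. The ratio of WT 1 to WT 2 was 20.5, the largest of the family, with a counting interval of 8.50 to 64.7. Fmod missed the filter on low counts, and the fit without it gave a log2 fold change of −3.10 (standard error 0.54). This became 0.28 (standard error 1.15) without WT 1. The fit without the filter gave smaller standard errors for the same gene, 0.32 against 0.76 for Dcn and 0.36 against 0.91 for Lum. The standard errors of Fmod and Ogn thus cannot be set beside those given for Dcn and Lum.

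**Figure D1:**
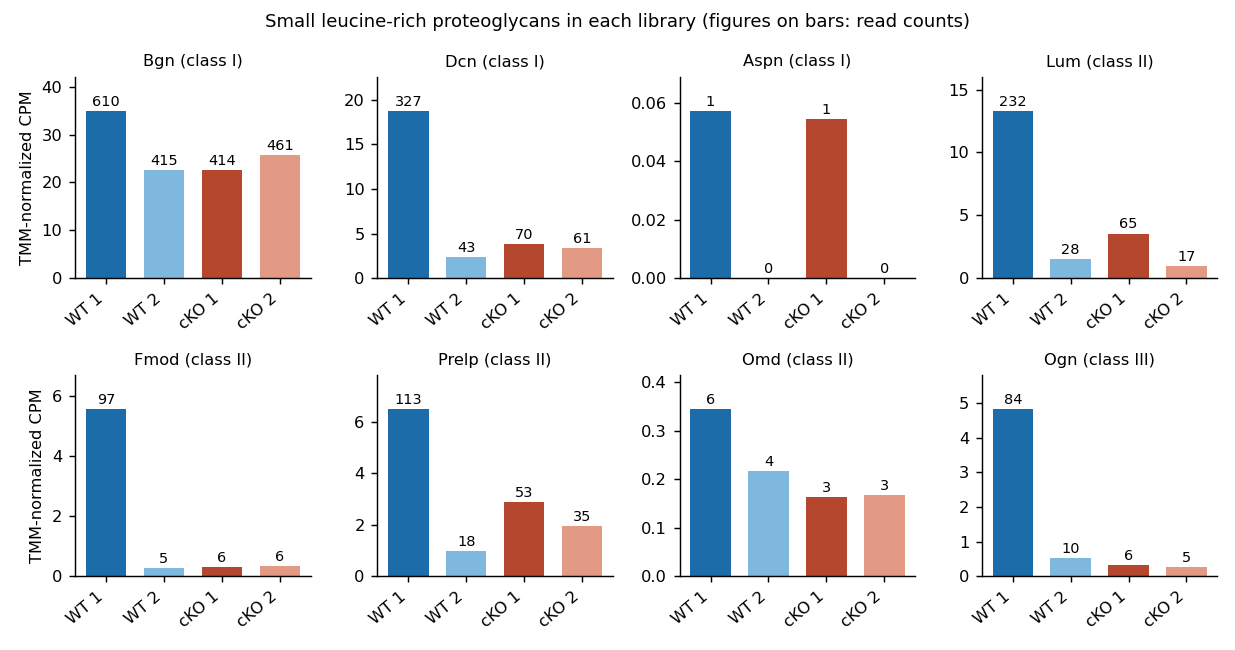
CPM (linear axes from 0, 1 panel a gene, different scales) of the 8 proteoglycan genes in WT 1, WT 2, cKO 1 and cKO 2, each bar 1 library with its read count above. WT 1 is the tall bar for Dcn, Lum, Fmod, Prelp and Ogn, and for Bgn it reaches 35.0 CPM against 22.5 to 25.8 in the other 3 libraries.

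Prelp, which ties basement membranes to the underlying collagen, had 113, 18, 53 and 35 counts, or 6.49, 0.976, 2.89 and 1.96 CPM. Both cKO libraries lay between the WT libraries. The log2 fold change was −0.62 (standard error 0.73), and without WT 1 it was 1.31 (standard error 0.66), the highest of the 7 genes with more than 1 count in a library. Against WT 2 alone the count ratio of cKO was 2.49 (counting interval 1.49 to 4.39). Osteomodulin (Omd), found in bone matrix, had 6, 4, 3 and 3 counts. Its groups did not overlap, but the count ratio of cKO to WT was 0.594 with a counting interval from 0.177 to 1.80.

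Osteoglycin (Ogn, mimecan), the class III protein, had 84, 10, 6 and 5 counts. In CPM these were 4.82, 0.542, 0.327 and 0.280. Both cKO libraries were below both WT libraries, yet WT 2 was far closer to them than to WT 1, which was 8.89-fold above WT 2. The log2 fold change from the fit without the filter was −3.10 (standard error 0.55). Without WT 1 it was −0.82 (standard error 0.97), and the count ratio of cKO to WT 2 was 0.560 with a counting interval of 0.216 to 1.47. At the depth of these libraries a difference between WT 2 and the cKO libraries in Ogn was not detectable.

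Across the 8 genes, WT 1 was the highest library for all 8, against 28.9% of all genes, though for Aspn this rests on 1 count. WT 2 was at least 2-fold below WT 1 (on CPM + 1) for 5 of them, Ogn, Fmod, Dcn, Lum and Prelp, against 0.975% of all genes. A gene under 1 CPM in WT 1, as Aspn and Omd were, cannot reach 2-fold on this measure. That share of all genes includes such genes and is not matched for level. Both cKO libraries were below both WT libraries for Ogn and Omd only, or 2 of 8, against 11.3% of all genes. The median log2 fold change of the 8 was −1.13 with all libraries and 0.43 without WT 1, beside medians over all genes of −0.01 and 0.02. With all libraries 8 of 8 values were negative, against 53.6% of all genes, and without WT 1, 2 of 8 were, against 46.6%. Aspn is included in these medians and counts, though its sign cannot be read. Its log2 fold change was −0.02 (standard error 3.20) with all libraries and 2.33 (standard error 4.23) without WT 1. In bulk tissue, fewer cells that make these transcripts and less RNA in each such cell cannot be told apart.

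The study's thresholds were a fold of at least 2 at an unadjusted p of at most 0.05. By them edgeR called 131 of 16145 genes (0.811%), 108 of them lower in cKO (0.669%) and 23 higher. By fold alone, 64 of the 108 were still at least 2-fold lower in the fit that left WT 1 out. Without WT 1 the split turned to 47 lower and 57 higher. Only Dcn, Lum, Bgn and Prelp passed its filter on low counts, and 0 of these 4 were called. In the fit of all 27293 genes without the filter, where 1.22% were called lower, Ogn, Fmod, Dcn and Lum were called. The same 4 were among the 65 genes (0.238%) with an adjusted p under 0.05 there, and WT 1 was the highest library for 56 of those 65. With the filter no gene had an adjusted p under 0.05 (199 had an unadjusted p under 0.05). Since this contrast chose the list, nothing is read from these counts.

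**Figure D2:**
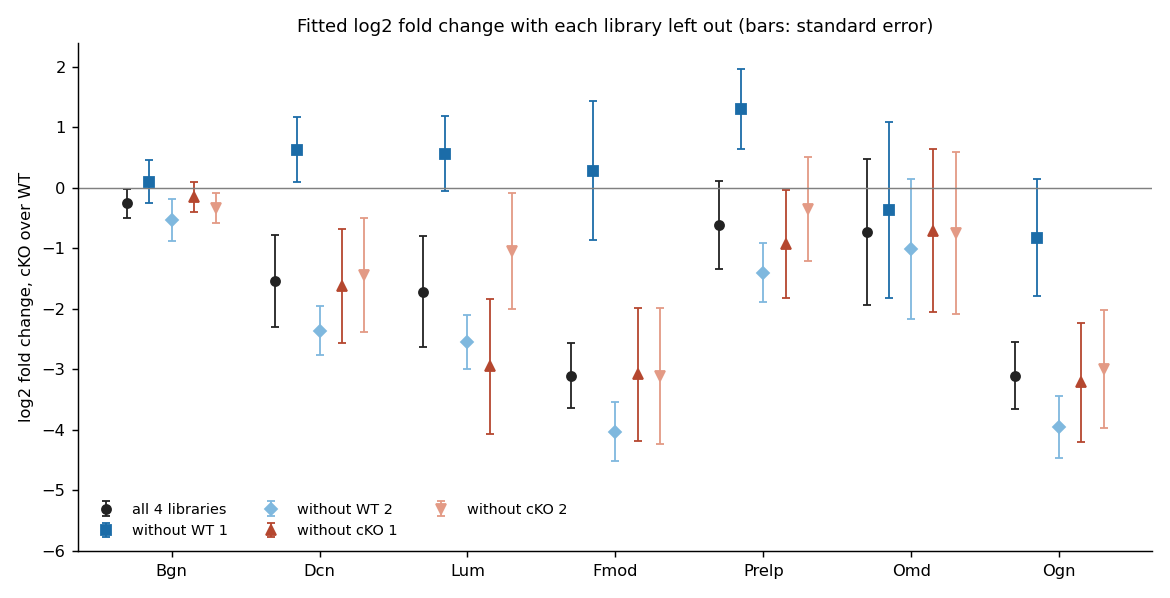
Fitted log2 fold change (cKO over WT) with its standard error for 7 of the genes (Aspn, with at most 1 count a library, is left out), with all 4 libraries and after omitting each of them. The blue squares, without WT 1, lie at or above 0 for Bgn, Dcn, Lum, Fmod and Prelp, and every other symbol plotted lies below 0. Values of Fmod, Omd and Ogn come from the fit without the filter, and their standard errors are not comparable with the rest.

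The share of each gene in the reads on the family differed between libraries. Bgn took 41.5%, 79.3%, 67.0% and 78.4% of those reads. Ogn and Fmod together with Dcn and Lum filled most of the rest of WT 1. Ogn took 5.71%, 1.91%, 0.971% and 0.850%. No other member followed this falling order. Dcn took 22.2%, 8.22%, 11.3% and 10.4%, and Lum 15.8%, 5.35%, 10.5% and 2.89%. Prelp took 7.69%, 3.44%, 8.58% and 5.95%, and Fmod 6.60%, 0.956%, 0.971% and 1.02%.

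**Figure D3:**
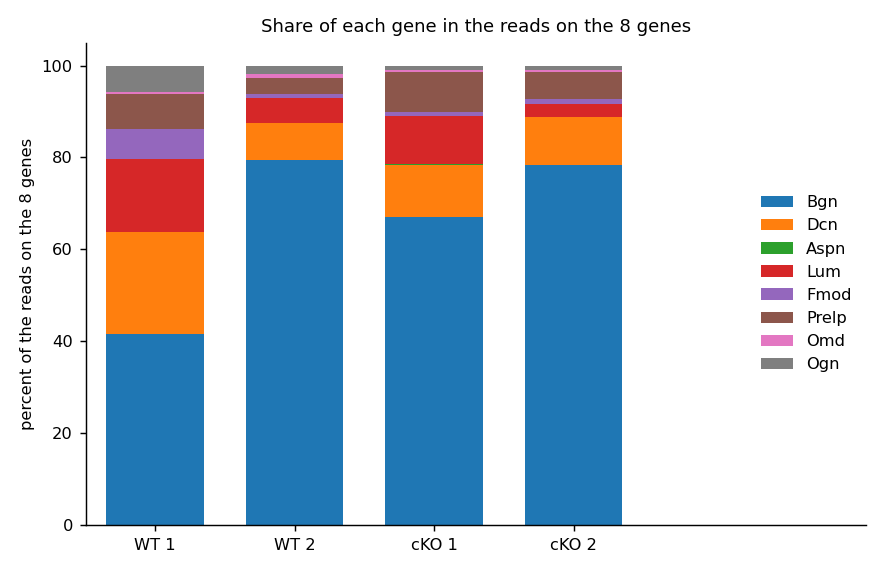
Percent of the reads on the 8 genes taken by each gene (stacked, 1 bar a library). Bgn takes 41.5% in WT 1 and from 67.0% to 79.3% in the other 3 libraries, where Ogn and Fmod are thin bands.

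The sums of the 8 genes were 84.4, 28.4, 33.7 and 32.9 CPM. Without Bgn they were 49.4, 5.86, 11.1 and 7.10. The meninges and mesenchyme markers moved with them, summing to 323, 84.2, 110 and 67.9 CPM in the same order. Of these 16 markers, 15 had more than 3 counts in a library, and Twist2 had 3, 0, 0 and 0. The choroid plexus markers summed to 51.4, 10.3, 6.60 and 8.61 CPM and those of blood to 889, 408, 336 and 526. Sums were 200, 150, 133 and 132 CPM for endothelium, 247, 192, 202 and 213 CPM for mural cells and 172, 129, 149 and 161 CPM for cartilage and bone. Abundant genes set the last pair of sums, Notch3 (122, 103, 117 and 130 CPM) and Col2a1 (168, 126, 145 and 159 CPM). Within these lists Acta2, the smooth muscle actin, had 59, 14, 12 and 11 counts. It was called lower, as 1 of 7 tested mural markers, beside 0.669% of all tested genes. The bone factors Sp7 (8, 13, 2 and 3 counts) and Runx2 (8, 11, 5 and 2 counts) were lower in both cKO libraries than in both WT libraries. They were the only 2 of the 8 cartilage and bone markers with that order, beside 11.3% of all genes. The part of these cell types in the values of the proteoglycans was not tested.

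Set against Col1a2, a collagen type I chain of mesenchymal cells, the genes did not all keep 1 ratio. Ogn had 6.45 and 4.35 reads per 100 reads on Col1a2 in WT 1 and WT 2, and 1.76 and 2.72 in cKO 1 and cKO 2. Prelp went the other way, with 8.67 and 7.83 in the WT libraries and 15.5 and 19.0 in the cKO libraries. For both genes these ratios did not overlap between the groups, in opposite directions. The share of all genes whose ratio to Col1a2 separates the groups was not counted, so nothing is read from this. In CPM, both cKO libraries lay between the WT libraries for Prelp. Dcn (25.1, 18.7, 20.5 and 33.2) and Lum (17.8, 12.2, 19.1 and 9.24) overlapped between groups, and Fmod had 7.44 in WT 1 and from 1.76 to 3.26 in the rest. The counts behind the low ratios of Ogn are 6 and 5 reads in the cKO libraries and 10 in WT 2, and with 2 libraries a group no test was made.

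**Figure D4:**
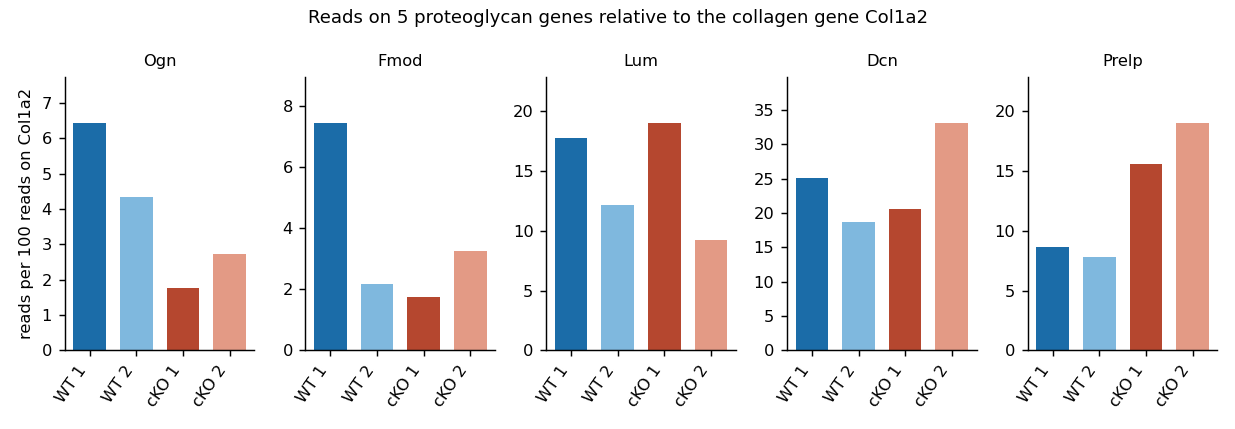
Reads on Ogn, Fmod, Lum, Dcn and Prelp per 100 reads on Col1a2 in each library (linear axes from 0, different scales). Both cKO bars are below both WT bars for Ogn (1.76 and 2.72 against 4.35 and 6.45) and above them for Prelp (15.5 and 19.0 against 7.83 and 8.67). The bars of Fmod, Lum and Dcn overlap between the groups.

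The genes whose pattern over the 4 libraries was most like the median of the family were found by the root mean square distance of centred log2(CPM + 1) among 16141 other genes. The median profile was 1.31, −0.49, −0.13 and −0.38. Nearest were Islr (distance 0.0883), itself a leucine-rich repeat protein of stromal cells, and Gpc3 (0.0961), a heparan sulfate proteoglycan of the cell surface. Bmp6, Cp (ceruloplasmin), Cfap126, Klhdc7a, Aldh1a2 (the retinoic acid enzyme of embryonic meninges), Tfpi, Ism2 and Trpm5 followed, up to a distance of 0.131. Islr had 288, 68, 96 and 72 counts, and Gpc3 had 447, 131, 180 and 147. Prelp (0.262) and Ogn (0.291) lay closest to the family's own median, and Aspn (0.698) and Omd (0.652) farthest. Aspn and Omd reached at most 0.0574 and 0.345 CPM, and adding 1 CPM flattens such low values. A flat profile has a distance of 0.726, so their place says nothing about their pattern.

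Other genes of the pathway were read from lists chosen with earlier results known, and over 8 lists 4 of 85 tested genes were called, all lower in cKO, beside 0.669% of all genes. Without WT 1 none of 86 was called. The 4 were Col1a1, Col1a2, Mmp2 and Adamts5, each with an adjusted p of 0.9999 from edgeR's quasi-likelihood test. Among 11 collagens that these proteoglycans bind, the median log2 fold change was −1.14 and 10 of 11 were highest in WT 1. Col1a1 had 1160, 179, 221 and 106 counts (log2 fold change −2.08, standard error 0.75, and −0.11 without WT 1). Col1a2 had 1303, 230, 341 and 184 (−1.59, standard error 0.69, and 0.21 without WT 1). Col2a1, the cartilage collagen, had 2920, 2324, 2664 and 2853 counts.

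Of 9 tested proteases that process or cleave the family, Mmp2 (gelatinase A) had 270, 125, 95 and 89 counts (log2 fold change −1.13, standard error 0.39, and −0.41 without WT 1). Adamts5, an aggrecanase that also cuts biglycan and decorin, had 112, 74, 49 and 35 counts (−1.17, standard error 0.38, and −0.79 without WT 1). For both, the cKO libraries lay below both WT libraries, which held for 2 of the 10 proteases in the table, beside 11.3% of all genes. For 1 of the 10 both cKO libraries lay above. Bmp1, the procollagen C-proteinase that matures biglycan, was abundant and even, with 1284, 1543, 1330 and 1484 counts.

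Among the enzymes that build the sugar chains, none of 22 tested genes of chondroitin and dermatan sulfate synthesis was called, with a median log2 fold change of 0.03 over those tested. The dermatan sulfate epimerase Dse had 127, 65, 77 and 57 counts, with WT 1 again the highest. None of 8 tested genes of keratan sulfate and tyrosine sulfation was called (median −0.06). Of 12 tested ligands and receptors none was called, and 12 of 12 fitted values were negative, beside 52.1% of all tested genes. Without WT 1, 9 of the 12 were negative, beside 49.4%. Bmp4 had 42, 4, 12 and 11 counts (log2 fold change −1.03, and 1.52 without WT 1), while Tgfb1 (108, 121, 91 and 112) differed little between libraries and Egfr had 36 and 34 in WT against 22 and 13 in cKO (log2 fold change −1.01, standard error 0.45, adjusted p = 0.9999 from edgeR).

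Of the 10 other genes of the leucine-rich proteoglycan family, 4 were highest in WT 1. None of the 5 tested was called, and the median log2 fold change over all 10 was −0.06 with all libraries and −0.07 without WT 1. Tsku (tsukushi, a secreted class IV protein that binds BMP and Wnt pathway ligands) was even, with 295, 309, 255 and 312 counts. Ecm2, beside Aspn on chromosome 13, had 35, 14, 24 and 18, Optc, beside Prelp, had 143, 89, 134 and 97, and Kera and Epyc, beyond Lum on chromosome 10, had at most 1 count. Cenpp, the gene that encloses the chromosome 13 row, had 125, 115, 150 and 72 counts, and none of 9 tested neighbours of the clusters was called or was highest in WT 1. Of the lecticans of neural tissue, Ncan stood at 63.8 CPM per kilobase of merged exon, Vcan at 18.1 and Bcan at 9.27. All were above the 4.34 of Bgn on that measure, while Acan (0.0205) was below 7 of the 8 small proteoglycans. Ncan had 6369, 8783, 9053 and 8950 counts and was lowest in WT 1. None of 9 tested brain proteoglycans and link proteins was called.

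**Figure D5:**
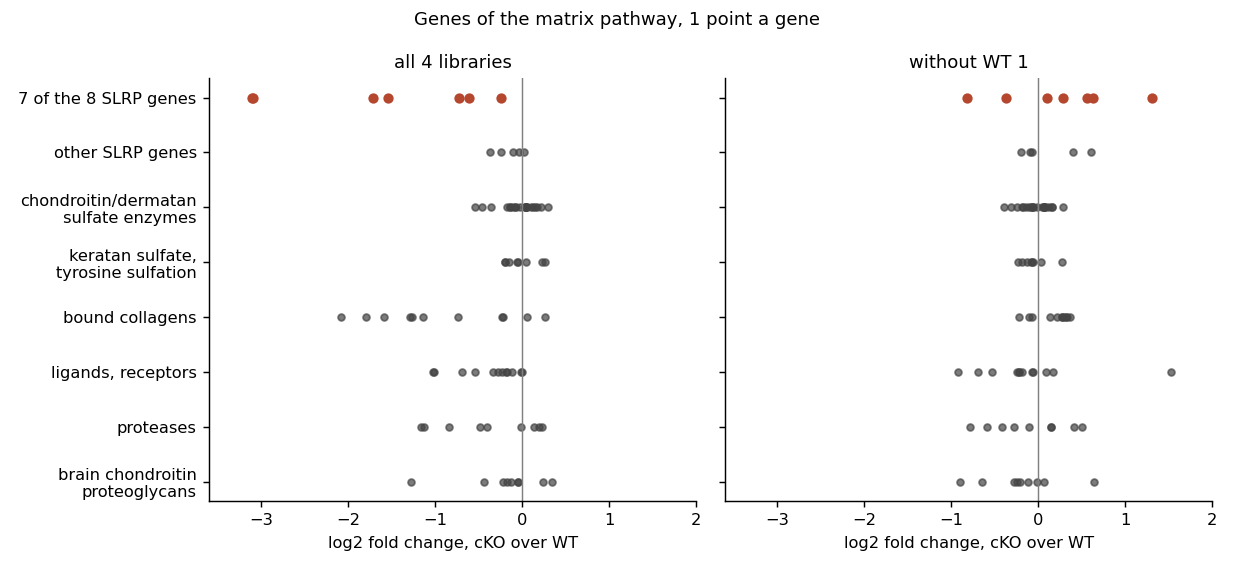
Log2 fold change (cKO over WT, horizontal axis) of the genes of each list, 1 point a gene, with all 4 libraries (left) and without WT 1 (right); red points are 7 of the 8 proteoglycans (no Aspn) and grey points the tested genes of 7 other lists. The proteoglycans and bound collagens reach −3.10 and −2.08 on the left, and on the right the collagens lie near 0.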

How the data were processed

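RNA-seq counts of 4 libraries, 2 labelled WT and 2 labelled cKO, were analysed. Genotype and replicate number come from GEO's labels. The authors deposited a table of raw counts per gene for all 4 libraries, with 27304 rows, of which 11 (0.0403%) were blank and left out. Per the labels' processing notes, Bowtie2 2.2.3, TopHat2 2.0.12 and HTSeq 0.6.0 are named, with build mm9. The positions in the table are those of GRCm38, since 96.8% of the 27232 genes found in GENCODE M21 have the same start or end there. The strand setting, filters and treatment of duplicates are not given in the sources used here. The authors' columns of fold changes, p-values and mean normalized counts, and their separate table of cKO 1 and WT 1, were not used.

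Counts were normalized by TMM and tested with edgeR 4.0.16 in R 4.3.3 (filterByExpr, quasi-likelihood test, no covariate, Benjamini-Hochberg adjustment over all genes tested). Genes that missed the filter take their values from the same fit without it. P-values measure only the spread between these samples, and whether each library is 1 embryo is not given in the sources used here. Intervals on count ratios are exact 95% intervals and cover counting error only. The procedure was tested on simulated counts. The simulation held no library that stands apart as WT 1 does, so it does not cover that case. Alternatives were other scalings, no filter, DESeq2 1.42.0, the replicate number as a block, a stricter p, a ratio of CPM + 1, another gene length and leaving out each library.

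The members, the lists and the tests were chosen with earlier results of these data known. Genes were named by a rule: the 8 members, pathway genes past the thresholds or used to describe a list, the STING gene, and the 10 genes nearest in pattern. Bmp1, Bmp4, Egfr, Tgfb1, Dse, Vcan, Bcan, Acan, Notch3, Acta2, Sp7, Runx2 and Twist2 were chosen after their values were seen. Some markers of the cortex list are not reported here.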

Additional observations from a re-analysis of the deposited data

How the results depend on the processing

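All 8 fold changes kept their direction under the other scalings, no filter, DESeq2 and the replicate block. Without WT 1, the median of the 8 turned to 0.43, and the signs turned for Fmod (0.28), Dcn (0.63), Lum (0.57), Bgn (0.10), Aspn (2.33) and Prelp (1.31). Aspn also turned without cKO 2 (0.82), but with at most 1 count a library its direction cannot be read in any of these fits. With each library omitted in turn, the median ran from −1.97 to 0.43, Ogn from −3.95 to −0.82, Fmod from −4.03 to 0.28, Dcn from −2.36 to 0.63, Lum from −2.95 to 0.57, Bgn from −0.52 to 0.10, Prelp from −1.40 to 1.31, Omd from −1.01 to −0.37 and Aspn from −2.32 to 2.33. A fit with 1 library in a group assumes that it varies like the other group. With a pseudocount of 1 CPM the log2 ratio was −1.50 for Ogn and −1.56 for Fmod. Counted on its longest transcript, Bgn was at 9.93 CPM per kilobase.

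The 131 genes called became 208 with the replicate block, 65 with DESeq2, 405 with no filter, 14 at a p of 0.01, and 104 to 531 with a library left out (47 lower and 57 higher without WT 1). Those with an adjusted p under 0.05 were 0, 5 with the block, 65 with no filter and 0 to 116 with a library left out. The 4 pathway genes became 7 with the block, 9 with no filter and 0 to 12 with a library left out. The cause was not tested. The deviations of same-numbered libraries correlated at 0.14 over 16145 genes, but the labels give no shared litter or batch and there are only 2 pairs, so the numbers were not taken as pairs. Ogn and Fmod had 10 counts or fewer in every library but WT 1, so depth limits their values outside WT 1. Omd and Aspn had 10 counts or fewer in all 4 libraries, so depth limits all their values.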
